A study of Mus musculus with 14 samples.

Results

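The E1 pool of medial vestibular neurons was compared with the E2 pool, the pair of excitatory cell types on the arrays analysed here. The comparison took the 2 arrays titled E1 and the 2 arrays titled E2, which are 4 of the 14 arrays of the series, and set their means against each other as E1 minus E2 for every gene. Both pools came from brainstem of mice of the YFP-16, GIN and GlyT2-13 reporter lines on the C57BL/6 background, aged 24 to 32 days after birth. The labels give the same 3 lines for every pool and do not say which line supplied which cell, nor how many cells or animals a pool held. Cells had been assigned to E1 or E2 by the study from transmitter genes, ion channels and marker genes measured in single-cell cDNA. Differences in any gene used for that sorting do not bear independently on E1 and E2. The amplified cDNA of each type was then pooled, labelled and hybridised to 2 arrays. The 2 arrays of a type are therefore technical replicates of 1 pool. Every p-value below covers technical error and compares these 2 pools, not the cell types in general. Fewer cells that use a gene and less of its RNA per cell cannot be told apart in a pool.

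The medial vestibular nucleus is a brainstem nucleus that receives head motion signals from the inner ear and inhibition from the cerebellum, and that drives reflex movements of the eyes and head. Its excitatory projection neurons release glutamate, which is loaded into vesicles by the transporter encoded by Slc17a6. Its inhibitory neurons use GABA, glycine or both, which share the vesicular transporter encoded by Slc32a1. Peptides, calcium buffers, ion channels and vesicle proteins differ among such neurons and are commonly used to tell them apart.

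Values are log2 signals, so a difference of 1 is a 2-fold difference. The lowest value on every array was 2.387, the floor of the scale, and 31.1% to 34.3% of probe sets lay on it. A gene was kept if at least 1 of the 7 types had a mean of 5 or more, which 4409 of 16244 genes did. The 2 arrays of a pool correlated at r = 0.988 in E1 and r = 0.988 in E2 across these genes, which are not independent replicates. Their standard deviation between arrays was 0.25 log2 units in E1 and 0.23 in E2. The median signal was 6.67 and 6.50 on the 2 E1 arrays, and 6.55 and 6.52 on the 2 E2 arrays. The 3' probe set of Gapdh read above its 5' probe set by 5.86 log2 units in E1 and 5.65 in E2. The 18S ribosomal control probe set was lower in E1 than in E2, at 3.22 against 4.82, and the spiked BioB control at 8.23 against 8.98, and their part in the gene differences was not tested.

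The neuronal label held in both pools. All 7 pan-neuronal markers on the array were above 5 in each, among them Snap25, a membrane protein of transmitter release, at 13.39 in E1 and 13.25 in E2. Of 45 markers of astrocytes, oligodendrocytes, microglia and vessels or blood, 41 stayed under 3 in both pools. So did 54 of 88 transcription factors and 30 of 78 ion channel genes of the lists read below. The share over all genes was not counted. The astrocyte genes Gfap, Aqp4, Slc1a2 and Slc1a3 and the microglial gene Aif1 lay on the floor or next to it on all 4 arrays. The marker means of these lists could move little, since most members lay near the floor. Over the 12 astrocyte markers they ran from 3.76 to 3.77 on the E1 arrays and 3.58 to 3.60 on the E2 arrays, and over the 9 microglial markers from 2.40 to 2.51 and 2.40 to 2.46. The astrocyte markers above 5 were Aldoc and S100b, and the oligodendrocyte marker above 5 was Cnp. S100b differed by 1.96 in favour of E1.

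A gene was called when limma gave an adjusted p under 0.05 and the pools differed by at least 1 log2 unit. Of the 4409 genes 326 were called, or 7.39%. The E1 pool was higher for 185 (4.20%) and the E2 pool for 141 (3.20%). The E1 and E2 arrays did not overlap for any called gene, but this was common, holding for 2743 of the 4409 genes kept. By the same fit and rule, 579 genes (13.1%) were called between the inhibitory pools I1a and I1b, and 437 (9.91%) between I3a and I3b, and whether these shares differ was not tested. The balance of directions depended on the scaling and on single arrays. It was 161 and 164 after median centring and 163 and 162 after quantile normalization. It moved towards E2 without the first E1 array and towards E1 without the second. The median difference over the genes kept was 0.0426 with all arrays, -0.0047 without the first E1 array and 0.0979 without the second. Of the called genes 23 had means under 5 in both pools, and 8 carried clone-type names and are counted only.

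**Figure D1:**
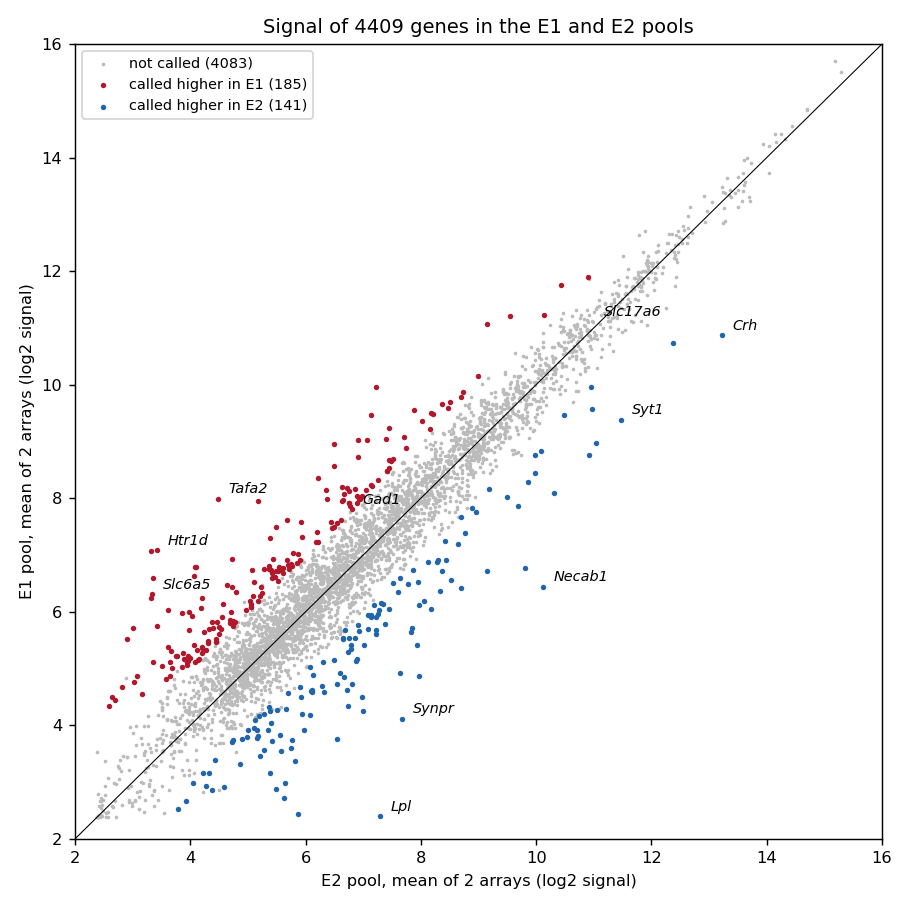
Mean log2 signal of 2 arrays in the E2 pool (x axis) and the E1 pool (y axis) for the 4409 genes kept, with genes called higher in E1 in red (185), those called higher in E2 in blue (141) and the rest in grey. The line marks equal signal; Slc17a6 lies close to it, while Lpl, at 7.28 in E2, sits on the floor in E1.

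The genes furthest apart in favour of E2 were led by Lpl, Necab1 and Synpr. Lpl encodes lipoprotein lipase, which frees fatty acids from lipoprotein particles, and lies at chr8:68880555-68906932 of GRCm38.p6. Its signal was 2.39 and 2.41 on the E1 arrays and 7.38 and 7.19 on the E2 arrays. The E1 arrays were thus on or next to the floor, and the difference of -4.88 (SE 0.17, limma adjusted p 1.50e-08) depends on where that floor lies. With all values under 5 set to 5 it was -2.28. Necab1, a neuronal calcium-binding protein (chr4:14952245-15149804), read 6.67 and 6.21 in E1 and 10.21 and 10.03 in E2. Both pools were well above the floor, and the difference was -3.68 (SE 0.26, limma adjusted p 2.01e-06). Synpr, a protein of the synaptic vesicle membrane (chr14:13284780-13615469), read 4.22 and 4.02 in E1 and 7.79 and 7.54 in E2, a difference of -3.55.

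The next genes of that direction were of mixed function. Adcy7, an adenylyl cyclase that makes cyclic AMP, read 6.93 and 6.61 in E1 and 9.83 and 9.77 in E2. Cxcl12, a secreted chemokine, read 4.41 and 4.09 in E1 and 7.38 and 6.59 in E2. Grik3, a kainate receptor subunit, read 4.70 and 5.14 in E1 and 7.73 and 7.55 in E2. All 3 were separated by over 2 log2 units between the nearest arrays of the pools. Anxa4, a calcium-dependent membrane-binding protein, stood at 2.50 and 2.95 in E1 and 5.57 and 5.69 in E2, and Pkmyt1, a kinase that holds back entry into mitosis, at 2.48 and 2.39 in E1 and 6.34 and 5.40 in E2. These last 2 were near the floor in E1 and not far above 5 in E2, and neither reached a difference of 1 once values under 5 were set to 5 (-0.63 and -0.87). Igsf1, a membrane protein of the immunoglobulin family, varied most between arrays, at 4.43 and 3.07 in E1 and 6.82 and 6.27 in E2. Its call (difference -2.79, SE 0.63) was lost without the second E1 array or without the first E2 array.

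Among genes higher in E1, Gadd45gip1, Htr1d and Tafa2 led. Gadd45gip1, a protein of the mitochondrial ribosome (chr8:84832282-84835482), read 7.16 and 6.97 in E1 and 3.39 and 3.24 in E2, a difference of 3.75 (SE 0.27, limma adjusted p 2.01e-06). Htr1d, a serotonin receptor that couples to inhibitory G proteins (chr4:136423522-136444405), read 7.24 and 6.92 in E1 and 3.14 and 3.71 in E2, a difference of 3.66 (SE 0.22, limma adjusted p 5.39e-07). In both cases the E2 arrays lay under 4, not far above the floor. Tafa2, a secreted chemokine-like protein of the nervous system (chr10:123264024-123741204), read 8.14 and 7.84 in E1 and 4.17 and 4.78 in E2, a difference of 3.51. Set against a level of 5 in place of lower values, the differences of these 3 genes were 2.07, 2.08 and 2.99.

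Other genes of this direction were well above the floor in both pools or low in E2. Tmtc4, an enzyme that adds mannose to proteins, was at 10.11 and 9.79 in E1 and still at 7.21 and 7.22 in E2. Hspb8, a small heat shock protein, was at 9.49 and 9.43 in E1 and 7.25 and 7.02 in E2. Otp, a homeobox transcription factor, read 5.72 and 5.32 in E1 and 2.90 on each E2 array, so its difference of 2.63 came down to 0.52 with values under 5 set to 5. Ptpre, a tyrosine phosphatase, read 6.38 and 6.09 in E1 and 3.44 and 3.19 in E2. The difference for Hspb8 was 2.33 with a large standard error of 0.52, because the fit pools the spread of all 7 types, and its call was lost when no genes were filtered for low signal.

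**Figure D2:**
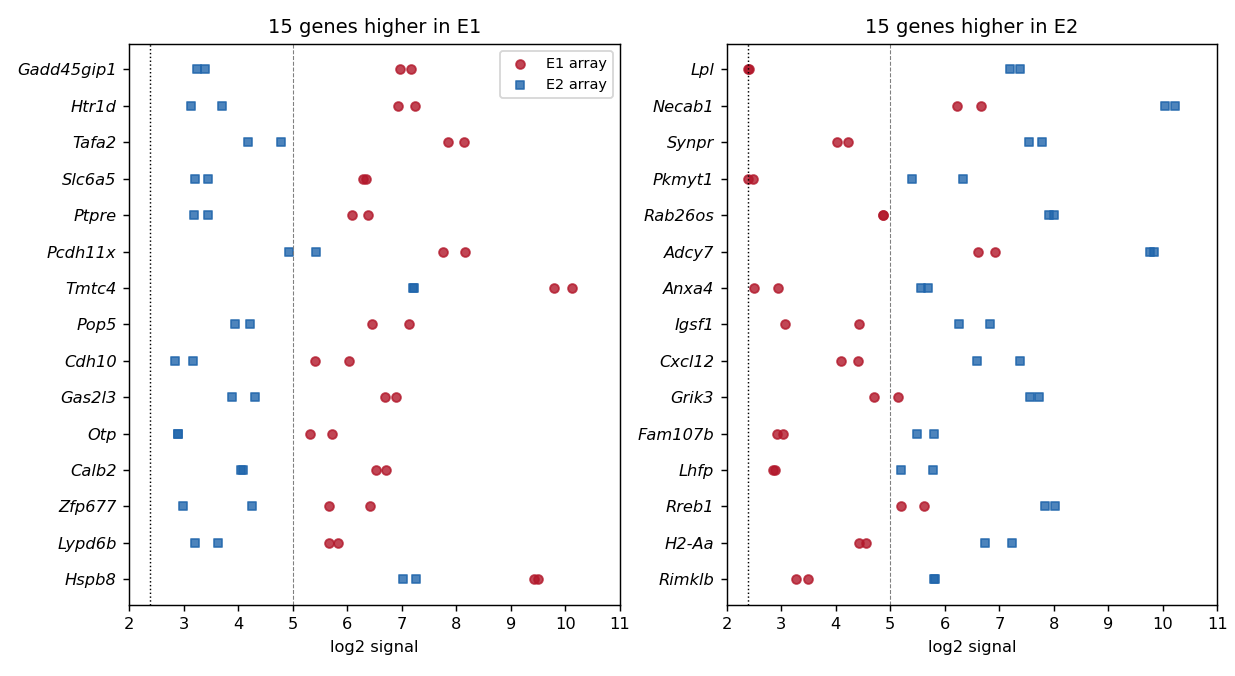
Log2 signal (x axis) on each E1 array (red circles) and each E2 array (blue squares) for the 15 genes with the largest difference in each direction. The dotted line is the floor at 2.387 and the dashed line the level of 5; in every row the 2 arrays of one pool lie apart from those of the other, and Lpl, Pkmyt1 and Anxa4 are at or near the floor in E1.

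The transmitter genes were read next, with the reserve that the study sorted cells by such genes, so that these levels do not bear independently on what E1 and E2 are. Slc17a6, the glutamate transporter of vesicles, had a mean of 11.11 in E1 and 10.98 in E2 over 2 arrays each, and was not called (difference 0.13, SE 0.11, limma adjusted p 0.435). None of the 5 glutamate genes kept was called, and their median difference was 0.15 against 0.04 over all genes. Of the 4 GABA and glycine genes 3 were higher in E1 and none in E2 (75.0% called beside 7.39% of all genes, median difference 1.09). Slc6a5, the glycine transporter of nerve endings (chr7:49906984-49963864), read 6.29 and 6.34 in E1 and 3.45 and 3.21 in E2. It was the clearest of the 3, with a difference of 2.98 (SE 0.13, limma adjusted p 5.95e-08). Slc32a1, which fills vesicles with GABA or glycine, read 6.75 and 6.44 in E1 and 5.72 and 5.10 in E2, and its call was lost without the second E2 array. Gad1, an enzyme of GABA synthesis, read 7.76 and 7.85 in E1 and 6.84 and 6.77 in E2, a difference that stood just at the threshold of 1 log2 unit and was called in 10 of 14 alternatives. The call was lost without the second E1 array (0.95), without the second E2 array (0.97), after quantile normalization (0.94) and after median centring of the arrays (0.95). Gad2, the other enzyme of that step, had the opposite sign, at 5.64 and 5.79 in E1 and 6.48 and 6.37 in E2, and was below the size threshold. In both pools Slc32a1, Gad1, Gad2 and Slc6a5 were lower than in each of the 5 inhibitory pools. Those pools had Slc6a5 at 7.53 in I3b to 8.47 in I3a and Gad1 at 10.75 in I1b to 12.38 in I2.

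Transcription factors set the position and identity of hindbrain neurons. Of the 23 kept from 3 lists (neuronal identity factors, Hox genes, and the Pbx, Meis, Ebf and Myt1 families), 8 were called in favour of E2 (34.8%) and 0 in favour of E1, by limma, beside 3.20% and 4.20% of all genes. The median difference was -0.56, and 18 of the 23 had a negative difference. Prdm8, a repressor of the PRDM family (chr5:98167203-98187454), read 4.71 and 3.97 in E1 and 6.80 and 6.68 in E2, a difference of -2.40. Neurod6 and Neurod1, basic helix-loop-helix activators of neuronal differentiation, went the same way. Neurod6 (chr6:55677818-55681263) read 3.80 and 3.39 in E1 and 5.56 and 5.93 in E2, and with values under 5 set to 5 its difference of -2.15 became -0.74, without a call. Neurod1 (chr2:79452637-79456636) read 5.47 and 5.61 in E1 and 6.91 and 6.79 in E2. Zic1, a zinc finger factor of the dorsal hindbrain, was high in both pools, at 8.27 and 8.28 in E1 and 9.88 and 9.83 in E2. Pbx3, a homeodomain partner of Hox proteins, read 7.83 and 7.68 in E1 and 8.91 and 9.01 in E2, and Hoxb3, a gene of hindbrain position, 5.89 and 6.00 in E1 and 6.99 and 7.19 in E2. Irx3 and Ebf3, the remaining called members, were under 5 in both pools and were kept only for their level in inhibitory pools. Members that reached 5 in no pool were left out of the count. Among those, Esrrb (4.14 in E1 and 2.57 in E2), Pou3f2 (4.35 and 3.10) and Evx1 (3.75 and 2.59) read higher in E1. Hoxa4 went the other way (2.81 and 4.97). The split of 8 and 0 thus holds for the genes kept. Satb1, a chromatin organiser, read 6.47 and 6.72 in E1 and 4.69 and 6.47 in E2, which met at 6.47, and was not called. Otp, which stands outside the lists and was higher in E1, shows that the pattern does not cover every such factor.

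Neurod1 and Neurod6 proteins bind a short DNA word, the E-box CANNTG, and stretches before transcript starts of the factor genes are shown with every E-box in capitals. They are the 250 bases upstream of a listed start site in RefSeq's table for GRCm38.p6, read 5′ to 3′ on the strand of the gene. The promoters of Slc6a5 and Htr1d, which went the other way, are shown beside them for comparison. The regions are chr2:79456637-79456886 on the minus strand for Neurod1, chr6:55681264-55681513 on the minus strand for Neurod6, chr5:98180619-98180868 on the plus strand for Prdm8, chr7:49910049-49910298 on the plus strand for Slc6a5 and chr4:136423274-136423523 on the plus strand for Htr1d. Slc6a5 and Htr1d have 2 listed starts each, and the more upstream one was taken. The listed starts of Prdm8 and Slc6a5 lie downstream of the first base of the gene spans given above, so these 2 windows lie inside those spans.
Neurod1: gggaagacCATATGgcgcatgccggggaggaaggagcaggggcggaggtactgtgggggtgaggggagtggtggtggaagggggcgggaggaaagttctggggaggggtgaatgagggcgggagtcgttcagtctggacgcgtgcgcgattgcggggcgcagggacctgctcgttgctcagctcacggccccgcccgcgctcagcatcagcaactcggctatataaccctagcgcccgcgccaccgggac
Neurod6: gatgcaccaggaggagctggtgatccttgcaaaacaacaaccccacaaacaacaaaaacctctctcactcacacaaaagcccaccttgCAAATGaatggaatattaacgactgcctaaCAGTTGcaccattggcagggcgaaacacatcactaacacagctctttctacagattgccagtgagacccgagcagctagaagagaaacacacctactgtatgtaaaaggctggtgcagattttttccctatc
Prdm8: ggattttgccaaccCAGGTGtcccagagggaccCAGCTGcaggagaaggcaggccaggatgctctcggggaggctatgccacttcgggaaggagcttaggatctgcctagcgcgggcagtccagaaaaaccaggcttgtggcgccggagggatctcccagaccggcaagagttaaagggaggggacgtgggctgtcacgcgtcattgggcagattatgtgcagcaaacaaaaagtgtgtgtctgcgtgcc
Slc6a5: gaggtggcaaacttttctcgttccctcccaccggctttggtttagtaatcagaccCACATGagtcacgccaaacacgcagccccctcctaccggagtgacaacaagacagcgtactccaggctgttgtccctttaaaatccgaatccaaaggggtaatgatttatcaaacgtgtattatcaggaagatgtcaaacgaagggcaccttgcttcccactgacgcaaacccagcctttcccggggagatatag
Htr1d: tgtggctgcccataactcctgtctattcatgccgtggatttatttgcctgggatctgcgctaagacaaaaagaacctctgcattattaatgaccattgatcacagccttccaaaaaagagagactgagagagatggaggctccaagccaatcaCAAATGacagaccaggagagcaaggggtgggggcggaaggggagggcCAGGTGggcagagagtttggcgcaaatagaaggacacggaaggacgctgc
The Neurod1 window holds 1 E-box and the Neurod6 window 2, Prdm8 has 2, Slc6a5 has 1 and Htr1d has 2. The motif reads the same way on both strands, so 1 search covers both. It is also common: 56.5% of the 4752 windows of the genes kept, from which the calls were drawn, hold at least 1, beside 61.5% of 213 windows of genes called higher in E1 and 60.0% of 135 windows of those called higher in E2. Over all 32851 windows of the table the share was 66.2%. These shares were not tested against each other. The form CAGATG, or CATCTG on the other strand, is in none of the 5 windows, in 7.98% of windows of genes called higher in E1 and in 10.4% of those called higher in E2, beside 9.70% for the genes kept and 14.4% of all windows. A match is a description of the letters only. Of the 185 and 141 called genes, 156 and 99 had a window in the table.

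Ion channels shape how fast and how regularly these neurons fire. Some of them served the study to sort its cells, so a difference here does not bear independently on E1 and E2. Of 38 channel genes kept in 4 lists (sodium, Kv potassium, other potassium with HCN, and calcium channels), 4 were higher in E1 and 2 in E2 (15.8% called beside 7.39% of all genes, median difference 0.07). Kcnc2, a Kv3 channel of fast repolarisation, read 8.11 and 7.84 in E1 and 6.70 and 6.59 in E2. Kcnab1, a subunit that helps inactivate Kv1 channels, read 6.10 and 6.16 in E1 and 4.65 and 4.47 in E2. Kcnj3, a potassium channel opened by G proteins, read 9.02 and 9.13 in E1 and 7.85 and 7.55 in E2. The arrays of the 2 pools did not overlap for these 3, as for every called gene. Kcnq3, a subunit of the slow M-current, was also called higher in E1 (difference 1.66), but its other probe set differed by -2.09 (2.42 in E1 and 4.51 in E2), and the mean of both gave -0.21 and no call. On the E2 side stood Fgf13, which modulates sodium channels, at 6.12 and 5.94 in E1 and 7.23 and 7.30 in E2, and Kcnc4, another Kv3 channel, at 5.18 and 4.88 in E1 and 5.98 and 6.18 in E2. The Kcnc4 call was lost without the second E1 array or the second E2 array. The major fast-spiking sodium channel genes were not called, with Scn1a at 11.44 in E1 and 11.20 in E2 and Scn8a at 9.65 and 9.48.

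Receptors differed gene by gene. Of 3 serotonin receptors kept, Htr1d was the 1 called (33.3% beside 7.39% of all genes). Htr2c, which couples to calcium release, read 10.66 and 10.45 in E1 and 9.68 and 9.60 in E2, and missed the size threshold (difference 0.91). Of 9 genes for GABA receptors, glycine receptors and their anchoring, Gphn and Gabra2 were higher in E1 and Glra2 in E2 (33.3% called beside 7.39% of all genes). None of these 3 was firm. Glra2, a glycine receptor subunit, was under 5 in both pools, while Glra1, the adult subunit, stood at 11.06 in E1 and 10.24 in E2 and was not called. The call for Gphn, the scaffold of inhibitory synapses, was lost without any 1 of the 4 arrays, and a further probe set of Gabra2, a GABA-A subunit, differed by -1.37, opposite to the 1.25 of the probe set used. Of 6 glutamate receptor genes Grik3 was the 1 called (16.7% beside 7.39% of all genes). The AMPA subunits Gria3 and Gria4 read 7.63 and 6.66 in E1 against 6.88 and 5.78 in E2 with no call. Npy5r, a receptor of neuropeptide Y, was called higher in E1 by 1.21, and its call was lost without the first E2 array.

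Neuropeptides and secretory proteins split in both directions. Marker genes served the study to sort its cells, and any of these genes used that way do not bear independently on E1 and E2. Crh, the precursor of corticotropin-releasing hormone (chr3:19693401-19695396), was well above the floor in both pools. It read 10.98 and 10.76 in E1 and 13.29 and 13.15 in E2, a difference of -2.35 (SE 0.14, limma adjusted p 5.39e-07), or 5.09-fold. Vgf, a secreted granin-like precursor, went the other way, at 8.11 and 8.19 in E1 and 6.38 and 6.32 in E2. Pcsk1n, an inhibitor of the convertase that cuts peptide precursors, was higher in E1 by 1.19, a call lost without the first E1 array. Of 14 members kept 2 were higher in E1 and 1 in E2 (21.4% called beside 7.39% of all genes), and the median difference was -0.03. The granins Scg2, Chgb and Chga were not called, with Scg2 at 9.97 in E1 and 10.42 in E2.

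Calcium-binding proteins, which include common markers of neuron types, were called more often than any other kind of gene in the lists that kept at least 5 members. That rank rests in part on Hpcal1 and Vsnl1, whose limits are given below. Cells were sorted partly by marker genes, so a difference in any marker used does not bear independently on E1 and E2. Of 13 kept, 4 were higher in E1 and 3 in E2, which is 53.8% beside 7.39% of all genes. Their median difference was -0.15, since the 2 directions offset each other. Calb2, calretinin, read 6.71 and 6.53 in E1 and 4.08 and 4.05 in E2, a difference of 2.56 (SE 0.17, limma adjusted p 1.08e-06). S100b read 9.02 on each E1 array and 7.18 and 6.94 in E2. It is also an astrocyte marker; Gfap, Aqp4 and Slc1a3 lay on the floor or next to it in both pools, and Aldoc, read at 12.02 and 11.95 in E1 and 12.06 and 11.93 in E2, was not called. Pvalb, parvalbumin, read 8.78 and 8.52 in E1 and 7.47 and 7.50 in E2. Vsnl1, a neuronal calcium sensor, was called with a difference of 1.01, at 11.93 and 11.88 in E1 and 10.90 and 10.88 in E2. On the E2 side were Necab1, S100a10, which carries receptors and channels to the membrane, at 6.30 and 6.09 in E1 and 8.06 on each E2 array, and Hpcal1, whose call was lost without any 1 of the 4 arrays. Calb1, calbindin, was on the floor or next to it on all 4 arrays.

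At the synapse, single members of families changed while most did not pass. Of 22 genes for release machinery and synaptotagmins, 2 were higher in E1 and 3 in E2 (22.7% called beside 7.39% of all genes, median difference -0.23). Syt1, the main calcium sensor of fast release in forebrain neurons, read 9.53 and 9.23 in E1 and 11.53 and 11.41 in E2, a difference of -2.09 (SE 0.12, limma adjusted p 2.88e-07). Syt2, the related sensor of fast hindbrain synapses, stood at 8.05 in E1 and 7.52 in E2 and was not called. Cplx2, a complexin that clamps and then promotes fusion, read 6.73 and 6.70 in E1 and 9.24 and 9.04 in E2. Its relative Cplx1 was strong in both pools, at 12.97 in E1 and 12.64 in E2, with no call. Rims2, a scaffold of the release site, was higher in E1, at 6.19 and 5.81 against 4.74 and 4.65. Stx1a and Syt17 were called, on opposite sides, with means under 5 in both pools. Of 16 vesicle proteins Synpr was the 1 called, a share of 6.25% near the 7.39% of all genes, and Rab3a, a vesicle GTPase, stood at 12.21 in E1 and 12.43 in E2.

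Genes of adhesion and axon guidance also split. Of 10 cadherins and protocadherins 3 were higher in E1 and 1 in E2 (40.0% called beside 7.39% of all genes, median difference 0.45). Pcdh11x, an X-linked protocadherin, read 8.16 and 7.75 in E1 and 4.93 and 5.41 in E2, and Pcdh8, another protocadherin, 8.68 and 8.44 in E1 and 6.61 and 6.38 in E2. Cdh10, a type II cadherin, read 6.02 and 5.41 in E1 and 3.17 and 2.83 in E2, and its difference of 2.72 became 0.72, without a call, with values under 5 set to 5. Pcdh10 went the other way, at 4.74 and 4.71 in E1 and 6.64 and 6.45 in E2. Of 22 guidance genes 6 were higher in E2 and 2 in E1 (36.4% called beside 7.39% of all genes, median difference -0.20). Sema3a, a secreted repellent of axons, read 6.43 and 6.40 in E1 and 8.73 and 8.64 in E2, and Ntng1, a membrane-tethered netrin, 5.95 and 5.47 in E1 and 7.85 and 7.83 in E2. Those on the E1 side were Slit2, a secreted ligand of Robo receptors, at a mean of 9.04 in E1 and 7.39 in E2, and Ephb1, an ephrin receptor, at 6.51 and 6.19 in E1 and 4.76 and 4.81 in E2. Of 24 other synaptic adhesion genes 3 were called, each in favour of E2, beside 3.20% of all genes called that way. Cbln4, a secreted organiser of synapses, was the first of them, at 7.83 and 7.91 in E1 and 9.72 and 9.65 in E2, followed by Opcml, a membrane-anchored adhesion protein, at -1.54, and Slitrk2 at -1.25.

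Of 18 growth factor, chemokine and receptor genes kept, 3 were higher in E1 and 3 in E2, beside 4.20% and 3.20% of all genes. Ret, the receptor tyrosine kinase for factors of the GDNF family, read 9.31 and 9.15 in E1 and 7.45 and 7.46 in E2. Kitl, the ligand of the receptor Kit, read 6.26 and 5.97 in E1 and 8.05 and 7.89 in E2, and Igf1, insulin-like growth factor 1, 4.56 and 4.84 in E1 and 6.27 and 6.30 in E2. Fgf9 was high in both pools and passed narrowly, at 9.18 and 9.27 in E1 and 8.21 and 8.10 in E2. Rgs2, which shortens signals of Gq-coupled receptors, read 11.29 and 11.13 in E1 and 9.65 and 9.43 in E2. It was the 1 called among 18 genes of G protein subunits and their regulators, 5.56% beside 7.39% of all genes. Ptprz1, a receptor phosphatase also found in perineuronal nets, read 7.56 and 7.41 in E1 and 5.35 and 5.61 in E2.

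Neurofilaments, which set the calibre of axons, were kept together with other intermediate filament genes, 4 of 8 on the array. Nefm was the 1 called of the 4, 25.0% beside 7.39% of all genes. The median difference of the 4 was 0.93. Nefm read 8.84 and 8.52 in E1 and 7.42 and 7.48 in E2, a difference of 1.23. Nefl stood at 11.98 and 11.75 in E1 and 10.97 and 10.87 in E2, and Nefh at 9.80 and 9.77 in E1 and 8.94 and 8.80 in E2. For Nefl and Nefh the arrays of the 2 pools did not overlap, as for 2743 of the 4409 genes kept. Their differences of 0.95 and 0.92 fell short of the size threshold. For Ina, alpha-internexin, the arrays overlapped, at 6.87 and 7.02 in E1 and 7.39 and 6.44 in E2.

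Lists of general cell function were also read, and shares called in this paragraph stand beside the 7.39% of all genes. Of 65 respiratory chain genes 1 was called (1.54%), Cox7c, higher in E2. The Cox7c call was lost without the second E1 array or the second E2 array. Of 33 mitochondrial ribosome genes Gadd45gip1 was the 1 called (3.03%), and the list's median difference was 0.17. None of 18 cytosolic ribosome genes was called by limma, with a median difference of -0.40. Of 19 heat shock and chaperone genes 2 were called, Hspb8 and Hspa1b, both higher in E1 (10.5%, near the share of all genes). Hspa1b, an inducible chaperone, read 6.19 and 5.93 in E1 and 3.80 and 4.57 in E2. Of 6 immediate early genes kept 1 was called (16.7%), Ier3, at 4.25 on each E1 array and 5.46 and 5.32 in E2. Of 17 lipid genes 2 were higher in E1 and 1, Lpl, in E2 (17.6% called). Cpt1a, which brings fatty acids into mitochondria, was higher in E1, at 6.67 and 6.79 against 5.03 and 5.12, and Vldlr, a lipoprotein receptor, was called at 1.10 but lost its call without the first E1 array or the first E2 array. Of 3 further transmitter and receptor lists, limma called 0 of 2 genes for other transmitters, 0 of 3 for other amine and acetylcholine receptors and, with Npy5r, 1 of 4 for peptide receptors. Of the 2 markers kept for cerebellar Purkinje and granule cells, Pvalb was called towards E1 and Neurod1 towards E2, while Pcp2 and Gabra6 stayed near the floor. Ptprz1 was the 1 called of 4 net genes (25.0%), and Bcan, a net proteoglycan, stood at 10.31 in E1 and 10.90 in E2 with no call.

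**Figure D3:**
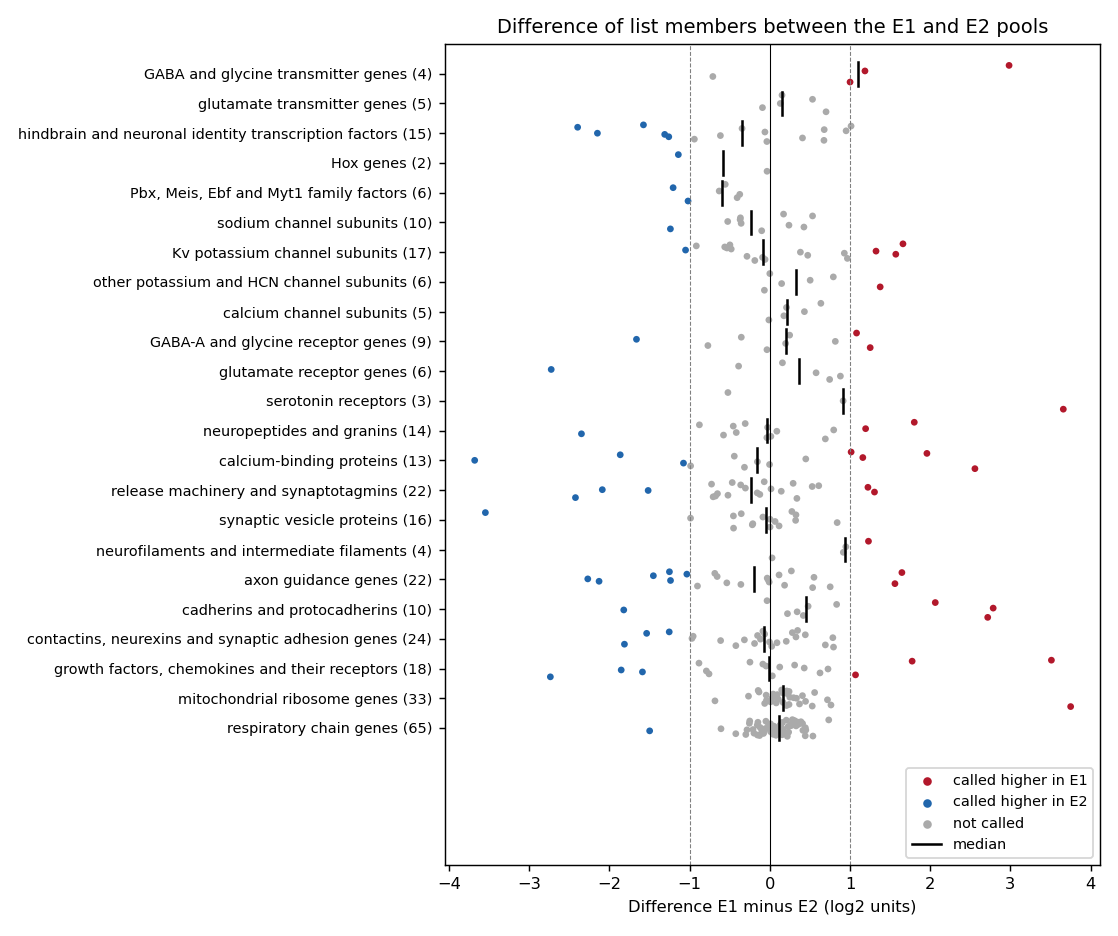
Difference E1 minus E2 in log2 units (x axis) for each gene kept in 23 lists, with the number kept in brackets. Red points were called higher in E1, blue points higher in E2 and grey points were not called; the black bar is the list's median, and dashed lines mark 1 log2 unit. Among the genes kept, transcription factors have blue points and no red ones, calcium-binding proteins have both, and respiratory chain genes cluster near 0.

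The called genes were also ordered by their means in all 7 pools. They were chosen for a difference between E1 and E2, which by itself favours an extreme rank for either pool. The same orders were not counted over all genes kept, so the counts do not say which pool was unusual. Of 185 genes higher in E1, E1 was the highest of all 7 pools for 97, E2 was the lowest of all 7 for 69, and 22 of these were both. For 41 neither held. Of 141 genes higher in E2, E2 was the highest for 56, E1 the lowest for 47, both held for 8 and neither for 46. These are counts of the order of pool means, with no test. Htr1d, for instance, was highest in E1, next in I1b at 6.41, and lowest in I2 at 2.60. Slc6a5 was lowest in E2 of all 7 pools and second lowest in E1. Anxa4, Cxcl12 and Fam107b reached 5 in E2 and in no other pool. Anxa4 stayed at 2.49 to 2.73 in the 5 inhibitory pools, Cxcl12 at 2.97 to 4.09 and Fam107b at 2.78 to 3.19, against 5.63, 6.99 and 5.65 in E2. Lpl was not restricted to E2, as it was stronger in I2, at 10.53, and also reached 6.78 in I1b. When E1 was the highest pool, the next was I1b for 46 of 97 genes. When E2 was the highest, the next was I1b for 22 of 56. The other E pool was next for 2 and 9 genes. A call requires it to be at least 1 log2 unit lower, and the part of that rule in these counts was not tested. No share over all genes was counted beside these.

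**Figure D4:**
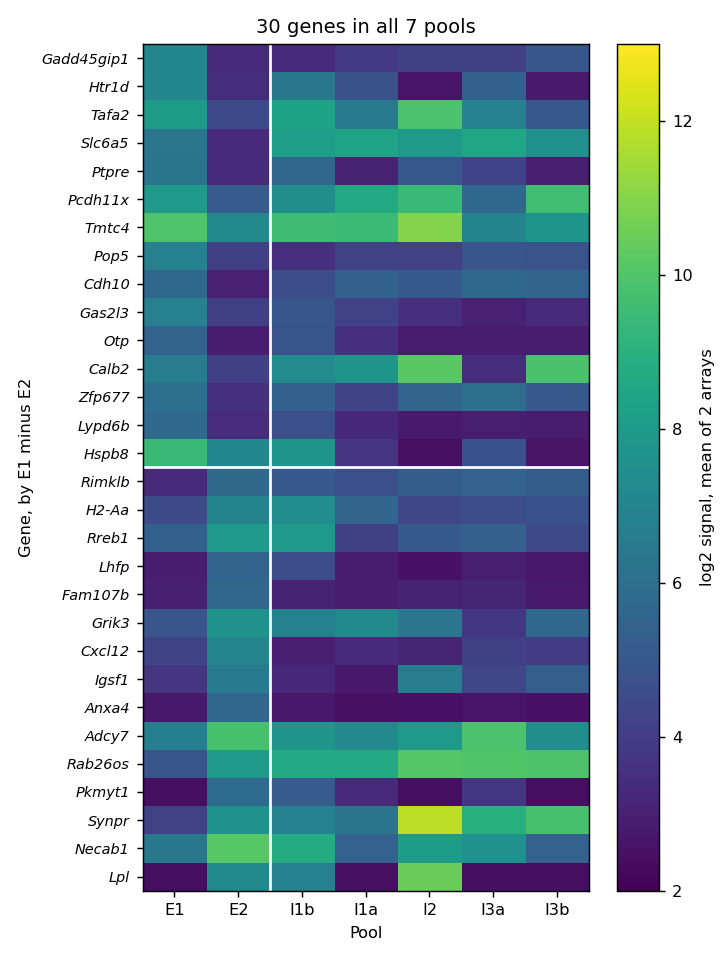
Mean log2 signal of 2 arrays (colour) in each of the 7 pools (columns) for the 15 genes with the largest difference in each direction (rows, ordered by E1 minus E2). Rows above the white line are higher in E1 and rows below it higher in E2. Anxa4, Fam107b, Cxcl12 and Lhfp exceed 5 in E2 and in no other column. Gadd45gip1, Pop5, Gas2l3, Otp and Lypd6b exceed 5 in E1 and in no other column. Lpl and Synpr are brightest in I2.

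Other probe sets gave a check within the arrays for a few genes. Among called genes named by the fixed rule, 7 had a further probe set that reached 5 in E1 or E2. In 6 of these it had the same sign, with Pcdh8 at 2.14 beside 2.06, Rgs2 at 1.21 beside 1.67, Cpt1a at 2.39 beside 1.65, Pcdh11x at 1.71 beside 2.79, Pcdh10 at -2.21 beside -1.82 and Ntng1 at -1.33 beside -2.13. The exception among these 7 was Gabra2. The opposite probe set of Kcnq3 did not reach 5. Further probe sets that stayed under 5 in both pools were not counted. Those of Slc6a5, Adcy7 and Rreb1 read 2.39 in both pools, while that of Htr1d read 3.87 in E1 and 2.46 in E2.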

How the data were processed

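Single-neuron cDNA was amplified, used by the authors to sort cells into types, pooled per type and turned into labelled cRNA, per the labels. Per the submitters' processing notes, affy and GCRMA produced the deposited log2 signals, GCRMA being one that corrects background by probe sequence and puts arrays on a common scale; tool versions are not given in the sources used here. The log base was taken from GCRMA's usual output and the range of the values. Of 30843 probe sets, 24034 had 1 gene symbol, 477 several, 6268 none and 64 were controls. Symbols were updated by Entrez identifier against RefSeq's GRCm38.p6 annotation, where 23883 matched. Where several 1-symbol probe sets named a gene, the one of highest average signal across the 14 arrays was used.

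Fits used limma 3.58.1 in R 4.3.3 (lmFit, eBayes with intensity trend) on all 14 arrays, 1 mean per type, with Benjamini-Hochberg adjustment over 4409 genes. All types lend their technical spread to the standard error, with 7 residual degrees of freedom. Figures used matplotlib 3.10.9. In simulated data of 4409 genes for E1 against E2, 91.0% of changes of 1.5 log2 units, 98.5% of 2 and 100% of 3 were called, with 0 false calls. The simulated noise was independent and normal at the technical spread, with no floor, array shift or variation between pools of a type. The size threshold of 1 log2 unit by itself keeps false calls few there. These figures are therefore no error rate for the calls between the 2 real pools.

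The comparison and 39 gene lists were chosen with earlier results of these data known. Named genes were the 15 largest called per direction, up to 6 called members per list, and the transmitter genes; the text also gives uncalled list members, which were chosen after their values were seen. Genes with clone-type names were counted only.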

Additional observations from a re-analysis of the deposited data

How the results depend on the processing

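The 326 calls became 193 with a filter at a mean of 7 (107 higher in E1, 86 in E2), 187 with the mean of all probe sets of a gene (103 and 84) and 217 with values under 5 set to 5 (126, and 91 in E2). The filter at 7 tests fewer genes, and setting values under 5 to 5 shortens differences that reach below 5; for the mean over probe sets the cause was not tested. Without 1 array of E1 or E2 the count ran from 313 to 361, with 144 to 227 higher in E1 and 131 to 169 in E2. The split was 163 and 162 after quantile normalization and 161 and 164 with arrays centred on their median. Of the 326 genes, 304 and 302 were called again in those settings, and 256 without the first E1 array. A call the same way in all 14 alternatives that tested the gene held for 62 genes higher in E1 and 61 higher in E2. Of the named genes 1 changed sign, Kcnq3, at -0.21 with all probe sets averaged, since its other probe set differs by -2.09. The deposited arrays share replicate numbers, and the deviations of same-numbered arrays correlated from -0.12 to 0.21 over 21 pairs of types (4 over 0.1). For E1 with E2 the correlation was 0.06, and for each of them with I1a it was 0.21. Whether some same-numbered arrays share a batch was not tested. With the replicate number as a block 327 genes were called, 186 higher in E1 and 141 in E2. Signals near the floor limit the sizes given for Lpl, Htr1d and Slc6a5. With 1 pool per type no test of the types themselves was possible.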

Other observations

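H2-Aa, the alpha chain of a class II antigen-presenting complex, was among the 15 largest differences in favour of E2, at 4.43 and 4.56 in E1 and 7.22 and 6.74 in E2, and was highest in I1b at 7.41. Its partner chain H2-Ab1 was at 2.44 in E1 and 2.72 in E2, the related H2-Eb1 at 2.57 and 2.68, the invariant chain Cd74 at 2.39 in both and the class II regulator Ciita on the floor in both. Of 3 further H2-Aa probe sets 0 reached 5 in either pool, and the highest E2 mean among them was 3.72. These genes were looked up after the H2-Aa value was seen. The further class II genes measured were thus near the floor in the pools in which H2-Aa was read.

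Probe sets with no symbol or several were not used in the comparison. Of 6745 such probe sets 502 reached a mean of 5 in at least 1 type. Of these, 21 were higher in E1 and 19 higher in E2 by 1 log2 unit or more with no overlap of arrays. Among the 4409 genes kept, 343 differed by 1 log2 unit or more, and the arrays did not overlap for 2743. No test was run on them.

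Male-specific transcripts were present in both pools, with Kdm5d at 5.99 and 5.70 in E1 and 5.21 and 5.66 in E2, and Eif2s3y at 5.89 and 5.51 in E1 and 5.42 and 5.44 in E2. Xist, expressed from the inactive X chromosome of females, stood at 2.39 and 2.50 in E1 and 2.39 on each E2 array.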
